A study of Mus musculus and Rattus norvegicus with 30 samples.

Results

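The genes of the receptors for glutamate, gamma-aminobutyric acid (GABA) and glycine were described in the dorsal root ganglia (DRG) of mice and rats with and without nerve injury. Members were the genes whose symbol begins with the stem of a receptor family (Gria, Grik, Grid, Grm with a number, Grin1 to Grin3, Gabr, Gabbr, Glra or Glrb). This rule found 53 of 54315 features in the mouse table, and 51 of 39281 in the rat table. The mouse set holds 52 receptor genes in 8 classes, and Grid2ip, which encodes a protein that binds delta receptors and was caught by its prefix. A filter on low counts left 46 members to be tested in mouse and 24 in rat.

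RNA was sequenced from adult mice of the strains BALB/c and B10.D2 and from Wistar rats. The mouse lesion was spared nerve injury (SNI), a cut of the common peroneal and sural nerves that leaves the tibial nerve whole, and its control was a sham operation that exposed the nerve. The L3 and L4 DRG of 1 animal made each mouse library, taken at day 28, and both sexes were used. Rats were males with spinal nerve transection (SNT) of the L5 nerve or sham surgery, and each rat library held L5 DRG of 3 animals pooled, taken at day 21. The sham groups held 6 BALB/c, 5 B10.D2 and 4 Wistar libraries, and the injured groups 4 BALB/c, 5 B10.D2 and 4 Wistar libraries. The L3 and L4 ganglia also hold neurons whose axons SNI did not cut, so mouse and rat values are from different lesions, ganglia and times.

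Glutamate is the transmitter that sensory neurons release in the spinal cord. Its ionotropic receptors are tetramers of AMPA (Gria), kainate (Grik) or NMDA (Grin) subunits, and metabotropic receptors (Grm) act through G proteins. GABA opens chloride channels made of 5 subunits (Gabr) and also acts through GABA-B receptors (Gabbr), while glycine receptors combine alpha subunits (Glra) with the beta subunit (Glrb). Receptors made in the DRG are carried along the axon, and those on the central terminals of sensory neurons set how much transmitter is released.

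Library totals were 29989963 to 41881331 counts in mouse and 11954612 to 17887909 in rat, and no pair of libraries was identical. Levels are CPM (counts scaled to a common library total) after TMM normalization, which scales libraries to a common composition. In mouse every listed marker of sensory neurons, satellite glia and Schwann cells was detected. Of the tested markers of injured neurons, 11 of 11 rose in BALB/c, 10 of 11 in B10.D2 and 8 of 9 in rat. The shares of all features that rose in these comparisons were 4.82%, 2.10% and 12.3%. On the first principal component of the rat libraries, which carried 71.5% of the variance, Wistar sham 4 (-6.33) and Wistar SNT 1 (1.09) were intermediate, as the remaining sham libraries scored -48.7 to -35.7 and the remaining SNT ones 30.6 to 49.9. Rat results are given with these 2 libraries, and without them where that changes a count. Each of the 2 is the library of its group nearest the other group on this component. Leaving them out therefore widens the difference there, and values without them are not separate support.

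Of the 51 members in rat, 20 are listed at 0 in all 8 libraries, among them Gria1, Grik1, Grik2, Gabbr1, Gabra2 and Gabrb2. Of these 20, 9 had at least 10 CPM in every mouse group. A listed 0 in rat is therefore not read as absence, and levels of these genes in rat are not given.

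The promoters of the genes that carry the injury result are shown first. Gria2 and Glrb, which fell in all 3 injury comparisons, are neighbours on chromosome 3 (Gria2 at 80681450 to 80802835, Glrb at 80843599 to 80913660, both on the minus strand of mm10), 40763 bases apart. Gria4 also fell in all 3, and Grik2 rose in both mouse strains. The 250 bases before the start site are given from RefSeq on GRCm38.p6, in the direction of transcription, and capitals mark the letters GGACAGC or their reverse complement:
Gria2 (chr3:80802836-80803085, minus strand): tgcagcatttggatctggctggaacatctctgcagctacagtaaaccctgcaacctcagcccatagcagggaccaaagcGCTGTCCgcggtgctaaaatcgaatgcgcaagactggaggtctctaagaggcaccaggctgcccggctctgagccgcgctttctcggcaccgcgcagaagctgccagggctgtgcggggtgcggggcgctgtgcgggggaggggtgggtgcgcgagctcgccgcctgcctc
Glrb (chr3:80913661-80913910, minus strand): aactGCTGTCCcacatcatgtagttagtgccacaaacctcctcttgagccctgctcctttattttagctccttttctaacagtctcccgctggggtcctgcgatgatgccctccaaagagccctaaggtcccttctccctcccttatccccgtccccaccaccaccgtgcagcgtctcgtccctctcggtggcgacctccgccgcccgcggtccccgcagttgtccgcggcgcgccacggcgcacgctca
Gria4 (chr9:4796235-4796484, minus strand): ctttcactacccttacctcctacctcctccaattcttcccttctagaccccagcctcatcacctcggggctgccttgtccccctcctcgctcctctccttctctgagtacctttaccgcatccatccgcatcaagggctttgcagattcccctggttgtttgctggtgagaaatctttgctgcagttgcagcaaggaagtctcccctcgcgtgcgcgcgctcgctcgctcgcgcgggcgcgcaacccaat
Grik2 (chr10:49788755-49789004, minus strand): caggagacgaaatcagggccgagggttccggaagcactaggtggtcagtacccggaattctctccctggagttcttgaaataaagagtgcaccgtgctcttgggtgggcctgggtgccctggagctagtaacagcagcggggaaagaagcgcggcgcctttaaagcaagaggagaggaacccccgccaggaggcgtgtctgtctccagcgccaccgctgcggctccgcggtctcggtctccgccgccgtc

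GGACAGC is part of the RE1 element, at which the repressor REST binds neuronal genes, and it was searched on both strands together with the other part of that element (TTCAGCACC), the AP-1 motif (TGANTCA) and the CRE motif (TGACGTCA). A member was counted where any of its starts held the letters, while the shares over all promoters count each start alone. RefSeq promoters were matched for 37 of the 53 members. GGACAGC was found in 4 of them (Gria2, Glrb, Glra2 and Grm2) and in 5.29% of 32841 promoters of the same length. It begins 171 bases before the start in Gria2 and 246 bases before it in Glrb. TTCAGCACC was found in Grm2 alone among the members and in 0.301% of all promoters, TGANTCA in Grid2ip (at one of its annotated starts), Grin3b and Grm8 and in 6.75%, and TGACGTCA in no member and in 1.55%. These are matches of letters, and binding was not measured. The matched members had a median of 61.2% G and C and 9 CG dinucleotides in these windows, against 52.4% and 6 over all promoters.

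In uninjured mouse ganglia the highest receptor gene per length was Gabbr1, a subunit of the GABA-B receptor. Its level was 54.7 ± 3.61 CPM per kilobase of exon (SD, n = 11 sham libraries of both strains). Grik1, the kainate subunit GluK1 of nociceptive neurons, followed with 43.1 ± 6.36, and Glrb with 37.2 ± 3.25 CPM per kilobase. Next came Gabbr2, the partner of Gabbr1, with 19.96 ± 2.80, and Gria4 with 19.3 ± 1.79 CPM per kilobase, and these 2 did not differ beyond their spread. The leading members of classes were Gria4 among AMPA subunits, Grik1 among kainate subunits, Grin1 among NMDA subunits (6.93 ± 0.459), Grm7 among metabotropic receptors (16.2 ± 1.09) and Grid1 among delta receptors (2.63 ± 0.207 CPM per kilobase).

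Within some receptor classes the RNA of the subunits was at very unequal levels in whole ganglia. Beside Glrb at 37.2 CPM per kilobase, the alpha subunits of the glycine receptor were low. Means over both strains were 0.586 for Glra4, 0.0858 for Glra2, 0.0566 for Glra1 and 0.0271 CPM per kilobase for Glra3. The strains differed, with Glra4 at 0.0233 in BALB/c sham and 1.26 in B10.D2 sham, and Glra2 at 0.0262 and 0.157. In BALB/c sham all of the alpha subunits were near the floor, and they were not ranked. Glra1 had 22 counts over the 6 libraries (0.0398 ± 0.0348 CPM per kilobase), Glra3 19, Glra2 18 and Glra4 10. Grin1, the subunit that every NMDA receptor needs, was at 6.93 CPM per kilobase, and the highest of the glutamate-binding subunits, Grin2d, was at 0.276. Grin3a, a glycine-binding NMDA subunit, was at 2.92 ± 0.732 CPM per kilobase. Among GABA-A alpha subunits, Gabra2 made up 48.1 ± 2.33% of the summed CPM per kilobase in BALB/c sham (SD, n = 6) and 44.1 ± 1.61% in B10.D2 sham (n = 5).

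**Figure D1:**
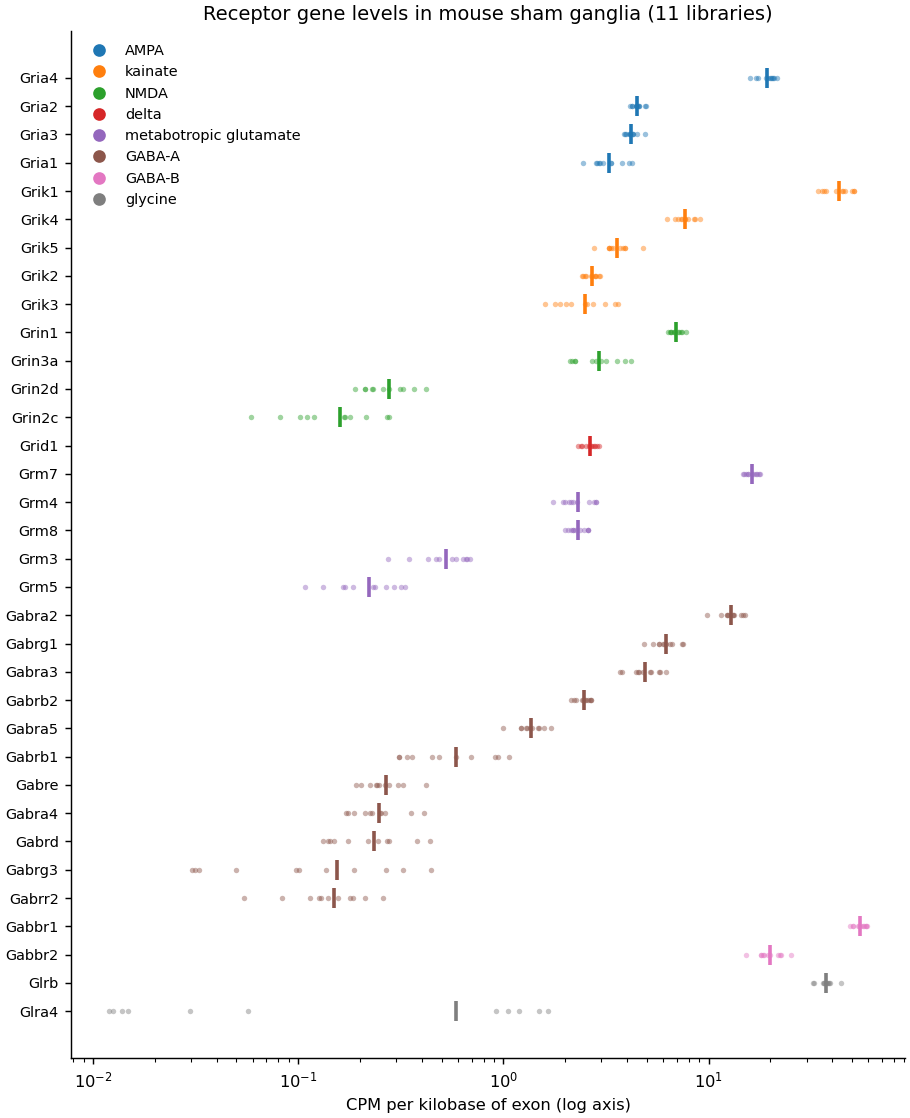
Levels of the receptor genes reported here with at least 0.1 CPM per kilobase in the 11 mouse sham libraries, in CPM per kilobase of exon on a log axis, grouped by class. Points are libraries and the vertical ticks are means. Gabbr1, Grik1 and Glrb are highest, with means of 54.7, 43.1 and 37.2, and Glra4 falls into separate ranges.

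After SNI in BALB/c mice Gria2, Gria4, Grin1, Gabra5, Gabrb2 and Glrb were among the members that fell, and Grik2 rose. Of the 46 members tested, 9 were called at an adjusted p-value under 0.05 by edgeR's quasi-likelihood test, 8 lower and 1 higher, which is 19.6% of the members. Over all features 9.69% were called, 4.82% higher and 4.87% lower. Among features of at least 10 CPM, 14.4% were called, against 8 of 27 members (29.6%). The median log2 fold change was -0.09 over the members and 0.00 over all features.

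In B10.D2 mice 8 of the 46 members were called, 4 lower and 4 higher, or 17.4%, against 4.58% of all features (2.10% higher and 2.48% lower). At 10 CPM or more, 7 of 27 members (25.9%) were called against 6.69% of features. The median log2 fold change of the members was 0.03. Gria2, Gria4, Glrb and Gabrb2 fell and Grik2 rose in both strains, so 5 members were called in each strain with the same direction.

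In rats with SNT 11 of the 24 members tested were called, 9 lower and 2 higher. This is 45.8%, against 27.4% of all features (12.3% higher and 15.1% lower), and at 10 CPM or more 9 of 16 members (56.2%) against 32.4%. The median log2 fold change of the members was -0.51. Without Wistar sham 4 and Wistar SNT 1, an alternative chosen after seeing the data, 22 of 25 members were called, 15 lower and 7 higher, against 43.9% of all features in the same fit. Leaving out Wistar sham 1, sham 2, SNT 2 or SNT 3 gave 6 calls each, leaving out sham 3 gave 4, and leaving out SNT 1 gave 17. In bulk ganglia, fewer cells of a type and less RNA per cell cannot be told apart.

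**Figure D2:**
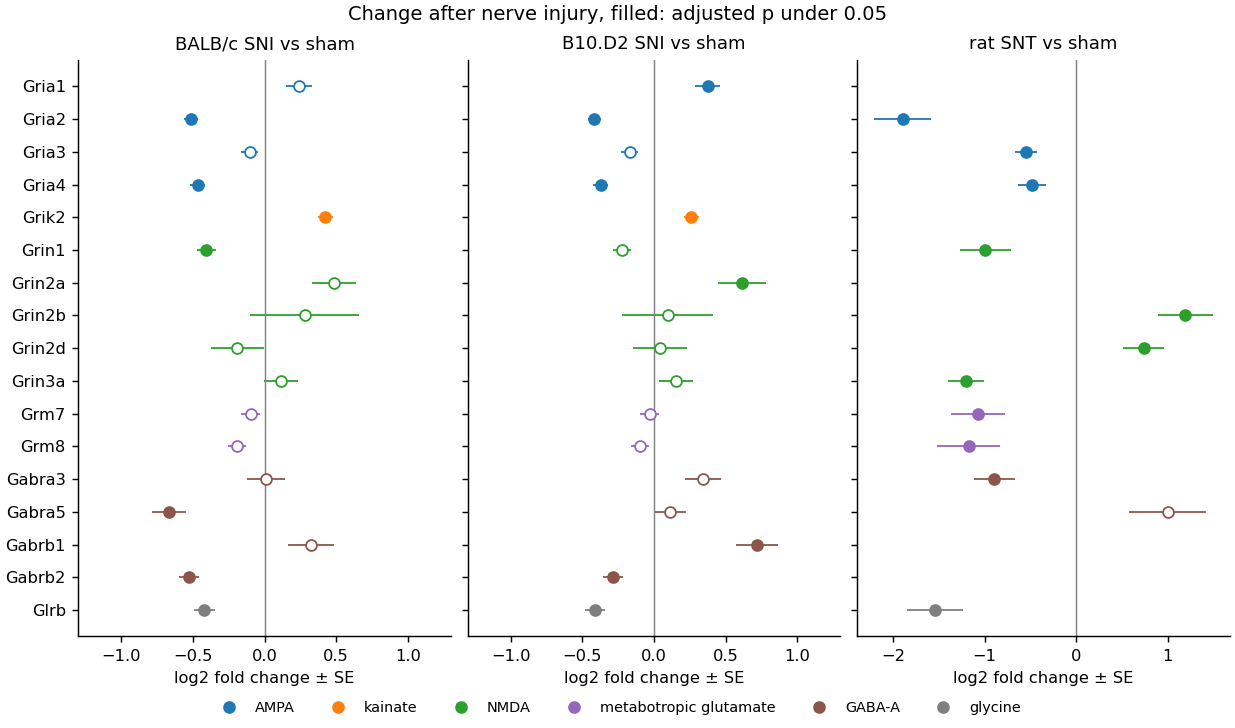
Log2 fold change with its SE for the members reported here that were called in at least 1 injury comparison, in BALB/c SNI, B10.D2 SNI and rat SNT against sham, coloured by class. Filled points have an adjusted p-value under 0.05, and a member with no point in rat was not tested there. Gria2, Gria4 and Glrb lie below 0 and are filled in each panel. The rat panel has a wider axis.

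Markers of sensory neurons moved with the injury too. Their summed level was 12018 to 13717 CPM in BALB/c sham and 10429 to 12126 CPM in BALB/c SNI, and 12984 to 15043 CPM in B10.D2 sham and 10516 to 13163 CPM in B10.D2 SNI. In each strain 3 of the 11 markers were called, all lower, and the median log2 fold changes were -0.14 (BALB/c) and -0.15 (B10.D2). In rat 6 of the 10 in the table are listed at 0 and 3 of the 4 tested were called lower, with a median of -0.90. Markers of macrophages summed to 81.6 to 205 CPM in BALB/c sham and 152 to 245 CPM in BALB/c SNI, with 3 of 10 called higher. In B10.D2 they summed to 168 to 202 and 186 to 308 CPM with 0 of 10 called, and in rat to 149 to 597 and 512 to 763 CPM with 1 of 6 called. Satellite glial markers had 2 of 6 called higher in BALB/c, 1 of 6 in B10.D2 and 1 of 2 in rat. Schwann cell markers had 0 of 8 called in each strain and 2 of 4 higher in rat, and those of endothelial cells and fibroblasts 2 of 8, 1 of 8 and 1 of 2, all higher. Spinal cord markers summed to 7.31 to 13.8 CPM in BALB/c sham and 6.45 to 7.23 CPM in SNI, to 15.3 to 18 and 13.4 to 17.7 CPM in B10.D2, and to 5.93 to 8.6 and 3.80 to 6.13 CPM in rat, with 1 of 2 tested called lower in BALB/c, 0 of 2 in B10.D2 and 1 of 2 lower in rat. Over all features 9.69% were called in BALB/c, 4.58% in B10.D2 and 27.4% in rat. The part of these marker shifts in the receptor results was not tested.

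Among AMPA receptor subunits, Gria2 and Gria4 fell in each comparison. Gria2 encodes GluA2, the subunit that keeps calcium out of the channel. In BALB/c sham its lowest, median and highest libraries were at 64.1, 70.5 and 76.9 CPM, and the SNI libraries were at 53.0, 46.8, 47.9 and 52.1 CPM. In B10.D2 the sham libraries were at 71.2, 68.9, 65.6, 69 and 65.8 CPM and the SNI libraries at 45.2, 53.8, 48.9, 51.6 and 52.5 CPM. Every SNI library lay below every sham library of its strain. The log2 fold changes were -0.51 ± 0.05 (SE) in BALB/c (adjusted p = 5.38e-07) and -0.42 ± 0.05 in B10.D2 (adjusted p = 1.89e-05).

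In rat Gria2 stood at 111, 119, 112 and 72.3 CPM in sham and at 48.7, 17.5, 19.6 and 26.0 CPM in SNT. The groups did not overlap, and sham 4 and SNT 1 were the nearest pair. The log2 fold change was -1.89 ± 0.31 (adjusted p = 0.0106), and -2.43 ± 0.15 without those 2 libraries.

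Gria4 encodes GluA4, the leading AMPA subunit per length in mouse sham ganglia. In BALB/c it was at 99.99 to 132 CPM in sham (median 123) and at 87.2, 77.7, 81.7 and 96.8 CPM in SNI. B10.D2 sham libraries were at 136, 130, 110, 122 and 125 CPM and SNI libraries at 79.6, 87.9, 90.6, 108 and 102 CPM. Neither strain's groups overlapped, and the log2 fold changes were -0.47 ± 0.05 (adjusted p = 5.71e-06) and -0.37 ± 0.05 (adjusted p = 0.000164). In rat it was at 62.0, 59.2, 57 and 54.0 CPM in sham and 52.7, 32.5, 35.1 and 46.1 CPM in SNT, a log2 fold change of -0.48 ± 0.15 (adjusted p = 0.0420). The rat call was lost in 8 of 14 alternatives, with adjusted p-values up to 0.115.

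Gria1 and Gria3 were each called in 1 comparison. Gria1, the GluA1 subunit, was at 18, 20.2, 25.6, 24.7 and 22.8 CPM in B10.D2 sham and 25.8, 36.1, 30.8, 27.1 and 27.3 CPM in B10.D2 SNI. All of these SNI libraries lay above the sham libraries, and it rose by 0.37 ± 0.09 on the log2 scale (adjusted p = 0.0156), and the value in BALB/c was 0.24 ± 0.09 (adjusted p = 0.109). The lowest B10.D2 sham libraries of Gria1 were 58 and 60, and the SNI libraries of this strain are numbered 69 to 90. A part of sample number in this rise was not tested. Gria3 was called in rat alone, at 33.0, 31.3, 33.6 and 27.8 CPM in sham and 19.4, 21.9, 25.0 and 19.6 CPM in SNT, a log2 fold change of -0.55 ± 0.12 (adjusted p = 0.0141). Per length, Gria1 went from 9.60 ± 1.41% to 14.2 ± 1.17% of the AMPA subunits in BALB/c and from 11.5 ± 2.03% to 18.2 ± 2.45% in B10.D2. Gria2 went from 15 ± 0.457% to 13.3 ± 0.398% and from 13.7 ± 0.313% to 12.1 ± 0.431% (SD over libraries, with no test).

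**Figure D3:**
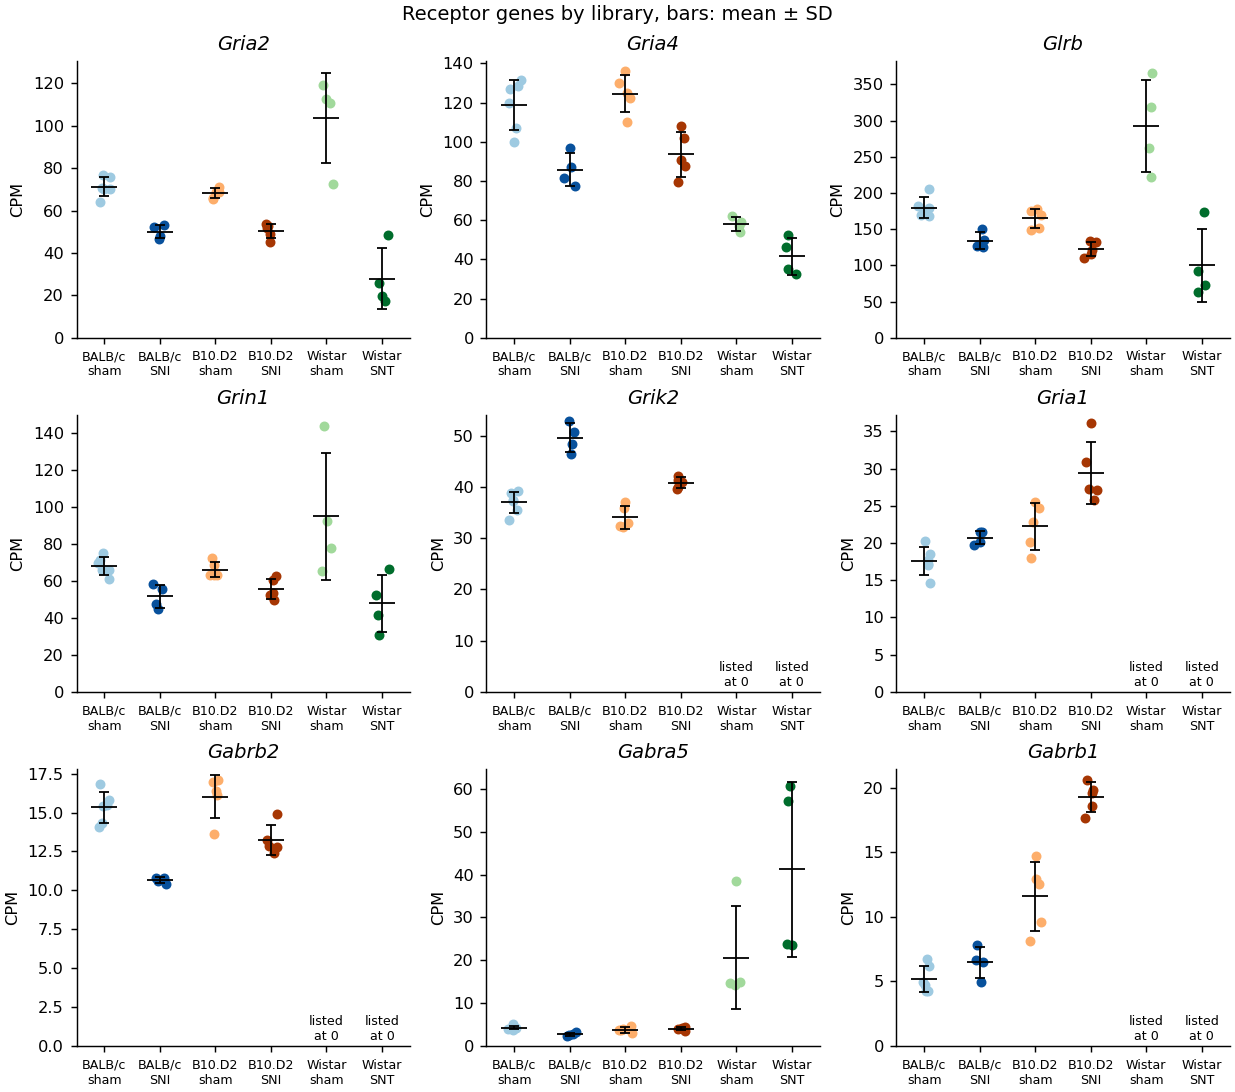
CPM of 9 receptor genes in each library, by group. Points are libraries, and the horizontal marks and bars are the mean and SD. Gria2, Gria4 and Glrb are lower in every injured group with no overlap, while Grik2 is higher in both SNI groups. Grik2, Gria1, Gabrb2 and Gabrb1 are listed at 0 in rat.

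Glrb fell in all 3 comparisons. The beta subunit joins the glycine receptor to the scaffold protein gephyrin. BALB/c sham libraries ran from 168 to 206 CPM with a median of 177, and SNI libraries were at 150, 125, 135 and 126 CPM. B10.D2 sham libraries were at 175, 178, 152, 170 and 149 CPM, and SNI libraries at 116, 133, 133, 122 and 111 CPM. In both strains every SNI library was below every sham library. The log2 fold changes were -0.42 ± 0.07 in BALB/c (adjusted p = 0.000440) and -0.41 ± 0.07 in B10.D2 (adjusted p = 0.000935).

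In rat Glrb was at 262, 366, 319 and 223 CPM in sham and at 174, 63.3, 72.3 and 92.5 CPM in SNT, again without overlap. Its log2 fold change was -1.54 ± 0.30 (adjusted p = 0.012), and -2.04 ± 0.17 without sham 4 and SNT 1. No alpha subunit was called after injury in mouse, and in rat none of them was tested. Gphn, the gene of gephyrin, fell in BALB/c by 0.16 ± 0.04 (adjusted p = 0.0113) and in rat by 0.39 ± 0.11 on the log2 scale (adjusted p = 0.0304). Gphn was named after its values were seen, and its B10.D2 value is not given here.

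Among kainate receptor subunits, Grik2 was the member that rose in both mouse strains. It encodes GluK2. It was at 33.6 to 39.3 CPM in BALB/c sham (median 37.3) and at 48.4, 53.0, 46.4 and 50.7 CPM in SNI. In B10.D2 it was at 32.9, 32.1, 37.1, 35.8 and 32.3 CPM in sham and 39.7, 40.0, 42.2, 41.3 and 41.1 CPM in SNI. All SNI libraries lay above all sham libraries of their strain, with log2 fold changes of 0.42 ± 0.05 (adjusted p = 1.68e-05) and 0.26 ± 0.05 (adjusted p = 0.00485). Grik1, by far the leading kainate gene, had log2 fold changes of -0.13 ± 0.07 and -0.03 ± 0.07 (adjusted p = 0.276 and 0.900). Per length Grik2 went from 5.11 ± 0.623% to 7.14 ± 0.213% of the kainate subunits in BALB/c and from 3.97 ± 0.217% to 4.80 ± 0.310% in B10.D2.

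**Figure D4:**
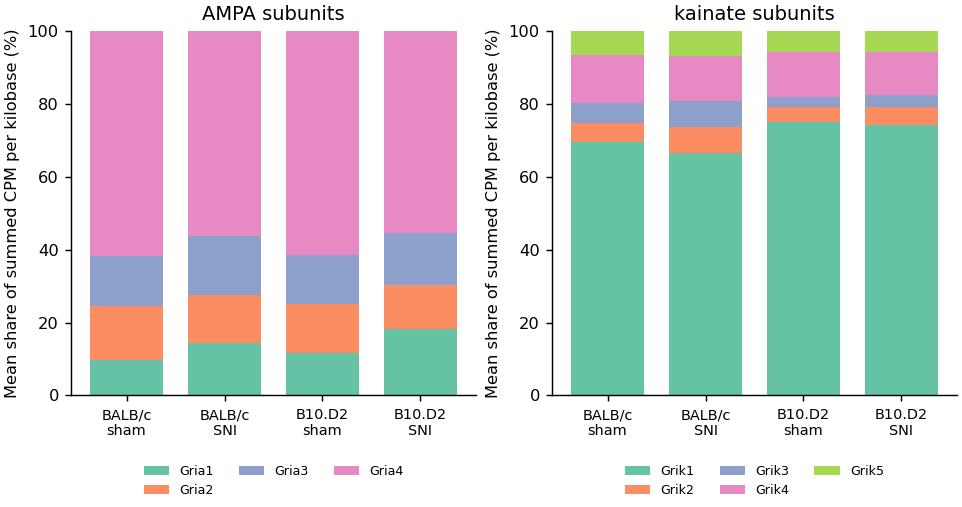
Mean share of each subunit in the summed CPM per kilobase of AMPA and kainate subunits, in percent, for the 4 mouse groups. Stacked bars start at 0 and end at 100. In BALB/c the share of Gria1 is 9.60% in sham and 14.2% in SNI, and that of Grik2 is 5.11% in sham and 7.14% in SNI.

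Of the 5 NMDA receptor genes tested in rat, 2 were called lower and 2 higher, where 27.4% of all features were called. Grin1, the obligatory subunit, was at 77.9, 144, 92.2 and 65.6 CPM in Wistar sham and at 66.8, 41.8, 30.6 and 52.3 CPM in SNT. The ranges met at sham 4 and SNT 1, and the log2 fold change was -0.99 ± 0.28 (adjusted p = 0.0285), a call lost in 6 of 14 alternatives. Grin3a was at 8.95, 12.7, 9.55 and 8.53 CPM in sham and 5.5, 3.87, 3.67 and 4.33 CPM in SNT, a fall by 1.20 ± 0.20 on the log2 scale (adjusted p = 0.0106).

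The glutamate-binding subunits Grin2b and Grin2d rose in rat. Grin2b, whose GluN2B subunit gives NMDA receptors slow currents, was at 13.3, 7.50, 10.04 and 18.6 CPM in sham and 16.9, 37.4, 28.2 and 30.3 CPM in SNT, where only SNT 1 lay within the sham range. Its log2 fold change was 1.19 ± 0.30 (adjusted p = 0.0197). Grin2d was at 2.24, 2.26, 1.57 and 2.28 CPM in sham and 2.47, 4.19, 3.78 and 3.47 CPM in SNT. The groups did not overlap, and its log2 fold change was 0.74 ± 0.23 (adjusted p = 0.0368). The call of Grin2d was lost in 7 of 14 alternatives, with adjusted p-values up to 0.106, and that of Grin2b in 2. In mouse the log2 value of Grin2b was 0.28 ± 0.38 for BALB/c and 0.09 ± 0.32 for B10.D2, neither called, at 0.175 to 1.36 CPM, where small changes were not detectable at this depth.

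In mouse Grin1 fell after SNI in BALB/c, from 61.4 to 75.1 CPM in sham (median 67.8) to 55.8, 47.5, 45 and 58.4 CPM. The groups did not overlap, and the log2 fold change was -0.41 ± 0.07 (adjusted p = 0.000319). In B10.D2 it was -0.22 ± 0.06 (adjusted p = 0.0527). Grin2a was at 0.819, 0.814, 0.897, 0.585 and 0.676 CPM in B10.D2 sham and 1.23, 0.893, 1.31, 1.20 and 1.20 CPM in SNI. It rose by 0.61 ± 0.17 on the log2 scale (adjusted p = 0.0403), a call lost in 12 of 26 alternatives, and the value in BALB/c was 0.48 ± 0.16 (adjusted p = 0.0543).

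Of the 17 GABA-A members tested in mouse, 4 were called in BALB/c, all lower, among them Gabra5 and Gabrb2. Over all features 9.69% were called in BALB/c, 4.87% lower. The median log2 fold change of the 17 was -0.07. Gabrb2, which encodes a beta subunit, was at 14 to 16.8 CPM in sham (median 15.5) and 10.8, 10.8, 10.6 and 10.4 CPM in SNI, a log2 fold change of -0.52 ± 0.07 (adjusted p = 3.80e-05). In B10.D2 it was at 16.1, 17.1, 16.4, 17.0 and 13.6 CPM in sham and 12.8, 13.2, 14.9, 12.4 and 12.9 CPM in SNI, a log2 fold change of -0.29 ± 0.07 (adjusted p = 0.0155). The B10.D2 groups overlapped through sham 88.

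Gabra5, an alpha subunit known from receptors outside synapses, was the member with the smallest p-value for a difference between the strains' responses. BALB/c sham libraries were at 3.81 to 5.06 CPM (median 4.23) and SNI libraries at 3.15, 2.36, 2.72 and 2.61 CPM, without overlap, and the log2 fold change was -0.67 ± 0.12 (adjusted p = 0.000710). B10.D2 sham libraries were at 3.63, 4.70, 3.61, 3.86 and 2.97 CPM and SNI libraries at 3.94, 3.39, 4.22, 4.36 and 4.06 CPM, with 0.11 ± 0.11 (adjusted p = 0.685). The test of the difference itself gave 0.78 ± 0.16 on the log2 scale (adjusted p = 0.230) by edgeR, and an adjusted p of 0.0263 by DESeq2. In rat Gabra5 was at 14.2, 14.8, 14.7 and 38.6 CPM in sham and 60.6, 23.5, 23.7 and 57.2 CPM in SNT, a log2 fold change of 0.999 ± 0.42 (adjusted p = 0.101 by edgeR). DESeq2 called it higher in rat (adjusted p = 0.0416). Without sham 4 and SNT 1, left out after seeing the data, its value was 1.27 on the log2 scale.

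The span of Gabra5 overlaps another gene on the opposite strand. Libraries kept strand, but whether counting used it is not stated, so reads in shared exons could be split between genes. Gabra4 and Gabrb1 overlap by 196 bases on chromosome 5.

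Gabrb1, another beta subunit, rose in B10.D2. It was at 8.16, 9.59, 13.0, 12.6 and 14.7 CPM in sham and 19.6, 17.7, 20.6, 19.9 and 18.6 CPM in SNI, with every SNI library above every sham library. As for Gria1, the lowest sham libraries were 58 and 60, and a part of sample number in the rise was not tested. The log2 fold change was 0.72 ± 0.15 (adjusted p = 0.00532), and 0.32 ± 0.16 in BALB/c (adjusted p = 0.224). Gabrb1 went from 4.97 ± 1.32% to 8.94 ± 0.800% of the beta subunits per length in B10.D2. In rat Gabra3, an X-linked alpha subunit, was the called GABA-A member, at 32.7, 32.5, 32.6 and 27.0 CPM in sham and 24.5, 10.5, 14.2 and 18 CPM in SNT. It fell by 0.89 ± 0.23 on the log2 scale (adjusted p = 0.0197) without overlap, and the call was lost in 3 of 14 alternatives.

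None of the 5 metabotropic receptors tested was called in mouse, and 2 of the 3 tested were called in rat. Over all features 9.69% were called in BALB/c, 4.58% in B10.D2 and 27.4% in rat. Grm7, a receptor that lowers transmitter release, was at 40.9, 58.1, 50.4 and 36.5 CPM in Wistar sham and 34.5, 14.5, 13.6 and 26.2 CPM in SNT, a fall by 1.07 ± 0.29 on the log2 scale (adjusted p = 0.0256). Grm8, of the same subgroup, was at 22.9, 23.5, 18 and 17.8 CPM in sham and 16.8, 5.34, 5.11 and 9.31 CPM in SNT, with -1.17 ± 0.35 (adjusted p = 0.0328). For both genes every SNT library was below every sham library, and each call was lost in 6 of 14 alternatives, with adjusted p-values up to 0.0692 for Grm7 and 0.0831 for Grm8. In BALB/c and B10.D2 the log2 fold changes of Grm7 were -0.10 ± 0.07 and -0.03 ± 0.07, and those of Grm8 -0.19 ± 0.06 and -0.10 ± 0.06.

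Neither GABA-B receptor gene was called after injury in mouse, and in rat Gabbr2, the one tested, was not called by edgeR. Gabbr1 was at 412 ± 22.9 CPM in BALB/c sham (SD, n = 6) and 377 ± 23.3 in SNI (n = 4), and at 440 ± 28.1 in B10.D2 sham and 412 ± 33.9 in SNI (n = 5 each). The log2 fold change of Gabbr2 was -0.27 ± 0.08 in BALB/c (adjusted p = 0.0519), -0.13 ± 0.08 in B10.D2 and -0.83 ± 0.29 in rat (adjusted p = 0.0569). DESeq2 called Gabbr2 lower in rat (adjusted p = 0.0198). Without sham 4 and SNT 1, left out after seeing the data, its value in rat was -1.17 ± 0.25. In all, 17 mouse members of at least 10 CPM in sham were called in neither strain, among them Gabbr1, Gabbr2, Gabra2, Gabra3, Gabrg1, Gria3, Grid1, Grik1, Grik3, Grik4, Grik5, Grin3a, Grm4, Grm7 and Grm8. In rat there were 7 that edgeR did not call, among them Gabbr2, Gabra5, Grik3, Grik4 and Grik5. Among these, DESeq2 called Gabra5 higher (adjusted p = 0.0416) and Grik4 lower (adjusted p = 0.0331), and Gabbr2 as given above. For Grid2ip the BALB/c and B10.D2 values were -0.93 ± 0.33 and -1.11 ± 0.32 on the log2 scale (adjusted p = 0.0795 and 0.0536).

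The 2 mouse strains could be compared by the interaction of strain with SNI. No member of 46 was called, against 0.0243% of all features, of which 6 were called by edgeR and 1073 had an unadjusted p-value under 0.05. DESeq2 called 1 member, Gabra5. A member that was called in one strain and missed the threshold in the other is therefore not shown to differ between them.

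Between the strains themselves, within sham libraries, 17 of 46 members were called, 12 higher and 5 lower in B10.D2. This is 37.0%, against 21.6% of all features (11.5% higher, the remainder lower). The largest was Glra4, a glycine receptor alpha subunit, at 1 to 4 counts in each of the 6 BALB/c sham libraries (0.0241 to 0.114 CPM). B10.D2 sham libraries held it at 2.40, 1.84, 2.12, 3.01 and 3.31 CPM, a log2 difference of 5.69 (adjusted p = 1.93e-11). This fitted value depends on the prior count, since the BALB/c sham libraries held 10 counts in all. From the summed counts, 471 in B10.D2, the ratio was 56 with an exact 95% interval of 30.2 to 118, for counting error only. The B10.D2 SNI libraries were at 2.37 to 3.08 CPM, and the BALB/c SNI libraries at 0 to 0.0973 CPM. Glra4 lies on chromosome X, and LncRNA3630, an assembled long noncoding RNA (LncRNA) 7835 bases away on the same strand, was also higher in B10.D2 (4.52 on the log2 scale, adjusted p = 9.78e-07).

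GABA-A genes called between the strains were all higher in B10.D2, among them Gabrg3, Gabrb1, Gabrr1 and Gabrr3. Gabrg3, a gamma subunit, was at 0.362 to 1.20 CPM in BALB/c sham (median 0.493) and 1.64, 2.23, 3.89, 5.27 and 3.21 CPM in B10.D2 sham. The ranges did not overlap, with a log2 difference of 2.27 ± 0.31 (adjusted p = 1.10e-05). Gabrb1 was at 4.30 to 6.71 CPM in BALB/c sham (median 4.82) and differed by 1.17 ± 0.15 (adjusted p = 2.67e-06), also without overlap. Gabrr1 and Gabrr3, which encode rho subunits and are named here after their values were seen, had at most 2 counts in any BALB/c sham library, and against a floor of 3 counts per library they were at least 2.59-fold and 2.66-fold higher in B10.D2.

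Glutamate receptor genes differed in both directions. Grm5, coupled to calcium release, was at 2.37 to 3.38 CPM in BALB/c sham (median 2.87) and 1.72, 1.69, 1.90, 1.36 and 1.11 CPM in B10.D2 sham, a log2 difference of -0.88 ± 0.16 (adjusted p = 0.000369). Grin2a differed by -0.78 ± 0.16 (adjusted p = 0.00102), and Grik3, at 22.4 to 32.3 CPM in BALB/c sham and 16.9, 19.2, 18.1, 16 and 14.4 CPM in B10.D2 sham, by -0.66 ± 0.12 (adjusted p = 0.000277). None of these 3 overlapped between the strains. Other members called, listed after their values were seen, were Grik1, Gria1, Grin3a and Grin2b, higher in B10.D2 by 0.35 to 1.25 on the log2 scale, Glra2 and Glra3, higher at under 1 CPM in every sham library, and Grin2d and Grm8, with log2 differences of -0.55 and -0.17. The call of Grin2d was lost in 5 of 26 alternatives and that of Grm8 in 13.

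Markers of spinal cord cells summed to 7.31 to 13.8 CPM in BALB/c sham and 15.3 to 18 CPM in B10.D2 sham, with 1 of the 2 tested called higher. Macrophage markers summed to 81.6 to 205 and 168 to 202 CPM, with 5 of 10 called higher in B10.D2. Over all features 11.5% were called higher. The part of these markers in the strain differences was not tested. Between the sexes 1 of 46 members was called, Gria4, lower in females by a log2 difference of -0.23 (adjusted p = 0.00396), against 0.243% of all features, and in the sham libraries alone the difference was -0.21 (adjusted p = 0.544).

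**Figure D5:**
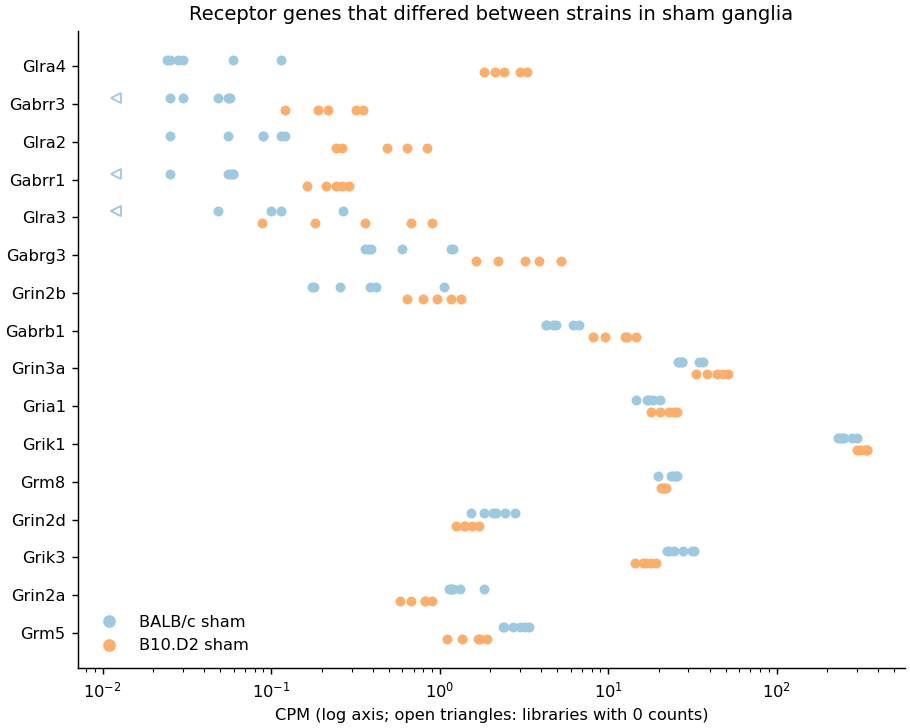
CPM of the members reported here that were called between strains, in each BALB/c sham and B10.D2 sham library, on a log axis, ordered by log2 difference. Open triangles stand for libraries with 0 counts. Glra4 is at most 0.114 CPM in BALB/c and at least 1.84 CPM in B10.D2.

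Genes that make, move and clear the transmitters were read from a list of 32. In BALB/c 4 of the 28 tested were called, all lower, and in B10.D2 5 were called, 4 lower and 1 higher, against 9.69% and 4.58% of all features. Slc1a1, the neuronal glutamate transporter EAAT3, fell in BALB/c from 8.59 ± 1.03 to 5.05 ± 0.322 CPM (log2 fold change -0.77 ± 0.11, adjusted p = 6.37e-05) and in B10.D2 from 7.38 ± 1.03 to 5.03 ± 0.343 CPM (-0.55 ± 0.10, adjusted p = 0.00293). Slc17a7, which loads glutamate into vesicles as VGLUT1, fell in BALB/c by 0.38 ± 0.12 (adjusted p = 0.0413) and in B10.D2 by 0.40 ± 0.11 on the log2 scale (adjusted p = 0.0482). Slc17a8, encoding VGLUT3, rose in B10.D2 by 0.33 ± 0.08 (adjusted p = 0.0147). The call of Slc17a8 was lost in 1 of 26 alternatives, with the strain fitted alone (adjusted p = 0.0622). Its BALB/c value is not given here. The B10.D2 call of Slc17a7 was lost in 18 of 26 alternatives.

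In rat 11 of the 22 tested were called, 6 higher and 5 lower, against 27.4% of all features. The glutamate transporter gene Slc1a6 rose from 1.35 ± 0.252 to 4.02 ± 1.76 CPM (log2 fold change 1.56 ± 0.32, adjusted p = 0.0130), and Slc6a11, the GABA transporter GAT3, from 8.16 ± 1.94 to 19.5 ± 6.70 CPM (1.26 ± 0.27, adjusted p = 0.0134). Slc17a8 fell from 3.00 ± 1.18 to 0.375 ± 0.474 CPM (-3.03 ± 0.63, adjusted p = 0.0130). In rat Slc1a1 rose, by 0.66 ± 0.14 on the log2 scale (adjusted p = 0.0134), and this gene was named after its values were seen.

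Of 43 genes for auxiliary and anchoring proteins, 5 were called in BALB/c (4 lower), 3 in B10.D2 (2 lower) and 11 of 23 tested in rat (8 lower). All 43 were tested in mouse, and the shares over all features were 9.69%, 4.58% and 27.4%. Cacng2, the gene of stargazin, which brings AMPA receptors to the membrane, fell in BALB/c from 6.79 ± 0.825 to 4.42 ± 0.622 CPM (log2 fold change -0.62 ± 0.16, adjusted p = 0.0139) and in rat from 13.2 ± 4.30 to 3.77 ± 2.18 CPM (-1.81 ± 0.41, adjusted p = 0.0146). Neto1, an auxiliary protein of kainate receptors, rose in B10.D2 from 4.42 ± 0.387 to 6.77 ± 1.495 CPM (0.63 ± 0.17, adjusted p = 0.0405), a call lost in 10 of 26 alternatives. The BALB/c call of Cacng2 was lost in 1 of 26 alternatives, without SNI 65 (adjusted p = 0.0579). Values of Cacng2 in B10.D2 and of Neto1 in BALB/c are not given here. The median log2 fold changes of this list were -0.05 in BALB/c, -0.04 in B10.D2 and -0.37 in rat, and those of the transmitter list -0.09, -0.02 and 0.22, beside 0.00, 0.01 and 0.00 over all features.

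Of the LncRNAs that the study assembled, 22 overlap or lie within 10 kilobases of 14 mouse members, 15 of them on the member's strand. Of 19 tested, 1 was called in BALB/c, 1 in B10.D2 and 7 between the strains, against 9.69%, 4.58% and 21.6% of all features. LncRNA2070 (chromosome 10, 49746107 to 49763202, minus strand) lies inside Grik2 on the same strand. It rose in BALB/c SNI by 0.53 on the log2 scale (adjusted p = 0.000222), as Grik2 did. In B10.D2, where Grik2 also rose, the value of LncRNA2070 was 0.24 (adjusted p = 0.121), not called. LncRNA2154 (chromosome 11, 57290520 to 57325380, plus strand) overlaps Gria1 on the same strand. Its whole span, introns included, meets exons of Gria1, and overlap exon by exon was not examined. LncRNA2154 rose in B10.D2 SNI by 0.46 (adjusted p = 0.0402), as Gria1 did. Its value in BALB/c was 0.19 (adjusted p = 0.405), and neither was called there. How far these counts and those of the host genes share reads was not tested.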

How the data were processed

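RNA from DRG, depleted of ribosomal RNA in mouse but selected for poly(A) in rat, was sequenced as strand-specific paired-end libraries. The authors aligned reads with STAR and counted them per gene with HTSeq, on mm10 for mouse and rn6 for rat, and they deposited raw counts. Tool versions and the strand setting of counting are not given in the sources used here. Counts of 20 of the 22 labelled mouse samples (the other 2 were not analysed here) and of 8 rat samples were used. Columns of the authors' own fold changes and p-values were not used.

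Counts were normalised with TMM and tested with edgeR 4.0.16 in R 4.3.3 by the quasi-likelihood F test, after filterByExpr, with Benjamini-Hochberg adjustment over all features and a threshold of 0.05. The mouse model held sex, strain, surgery and strain by surgery over all 20 libraries, and the rat model surgery alone. Errors of fold changes are SE, and others are SD. The main results were recomputed with DESeq2 1.42.0, and the scripts were tested on simulated data. Levels per kilobase used the union of exons in GENCODE M21, in which 49326 of 49585 gene IDs were found. Libraries were taken as separate samples, as labelled, and intervals or floors of counts cover counting error only. Folds of Gabrr1 and Gabrr3 between strains used a floor of 3 counts per library.

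The members and gene lists were chosen with earlier results of these data known. Some members are not reported here. Named were, of the rest, members called after injury at 1 CPM or more, the leading member of each class, the 3 largest rises and 3 largest falls between strains at 1 CPM or more, uncalled members of 10 CPM or more, and the leading called genes of the pathway lists. Alternatives were DESeq2 size factors, DESeq2, no filter, at least 10 counts in every library, no sex term, each strain alone, each library left out in turn and, in rat, the number shared by sample titles as a block.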

Additional observations from a re-analysis of the deposited data

Results flagged for a closer look

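Single libraries that stood apart within their group were sought in 114 groups of 4 to 6 libraries by Dixon's criterion at 95%, and 7 were found, where chance gives about 1 in 20 groups. Gabbr1 was at 391 CPM in B10.D2 sham 77, against 440 to 458 CPM in the other libraries of that group. Gabrb2 was at 13.6 CPM in B10.D2 sham 88, against 16.1 to 17.1 CPM. Grid1 was at 14.4 CPM in BALB/c SNI 65, against 16 to 16.4 CPM. Grin2a was at 1.83 CPM in BALB/c sham 55, against 1.14 to 1.31 CPM, and at 0.893 CPM in B10.D2 SNI 76, against 1.20 to 1.31 CPM. In rat Gabra3 was at 27.0 CPM in Wistar sham 4, against 32.5 to 32.7 CPM, and Grin2d at 1.57 CPM in Wistar sham 3, against 2.24 to 2.28 CPM.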

How the results depend on the processing

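No result reversed under the alternatives run. The injury comparisons held 28 calls of members, where a member called in several comparisons counts in each. Of these calls, 20 held in every alternative, 9 of 9 in BALB/c, 7 of 8 in B10.D2 (all but Grin2a) and 4 of 11 in rat (Gria2, Gria3, Glrb and Grin3a). With single libraries left out, called members ranged from 9 to 14 in BALB/c (14 without BALB/c sham 50), 7 to 10 in B10.D2, 0 to 0 in the interaction, 15 to 19 between strains, 1 to 1 between sexes and 4 to 17 in rat (6 without sham 1, sham 2, SNT 2 or SNT 3, 4 without sham 3, 17 without SNT 1). Called genes of the transmitter list ranged from 3 to 5 in BALB/c, 3 to 5 in B10.D2 (3 without sham 58, 60, 67 or 77 or SNI 69, 76 or 78) and 6 to 13 in rat (7 without sham 3, 6 without SNT 2). Those of the auxiliary list ranged from 2 to 6 in BALB/c (3 without sham 57 or 71 or SNI 49 or 64, 2 without SNI 65), 0 to 4 in B10.D2 (1 without sham 58, 60, 67 or 77, 0 without SNI 69 or 78) and 3 to 13 in rat (5 without sham 1 or 2, 3 without sham 3, 4 without SNT 2, 6 without SNT 3 or 4). DESeq2 called 1 member in the interaction, where edgeR called 0. In rat, members that DESeq2 called and edgeR did not include Gabbr2, Gabra5 and Grik4. Between strains 11 members were called with at least 10 counts required in every library, which tests fewer genes, and 28 when the strain difference was averaged over sham and SNI. Between sexes 0 were called in the sham libraries alone. With each strain fitted alone the auxiliary list had 3 calls in BALB/c and the transmitter list 2 in B10.D2. In rat 22 members were called without sham 4 and SNT 1, chosen after seeing the data. The cause of these shifts was not tested.

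Rat sham and SNT samples share numbers in their titles, and the labels do not say what these stand for. Deviations of samples with the same number correlated at -0.27 to 0.05 over 4 pairs. Of the 8 libraries, 0 correlated best with the one of its own number, so the numbers were not taken to pair them. With this title number as a block 8 members, 7 genes of the transmitter list and 4 of the auxiliary list were called in rat. Mouse sample numbers are unique, so no block was fitted there. The 7 mouse members not tested had at most 14 counts in any library, and the members listed at 0 in rat could not be compared.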
